A study of Homo sapiens with 12 samples.

Results

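MDA-MB-468 cells that received 2 drugs at once, ipatasertib and tazemetostat, were set against cells that received only the solvent DMSO. The libraries were chosen by treatment label, and they are 6 of the 12 libraries of the series, 3 with both drugs and 3 with DMSO. MDA-MB-468 is an established human breast cancer line of basal, triple-negative type. Cells of the combination group were kept in tazemetostat at 5 µM from day -5, replated on days -3 and -1, and given ipatasertib at 5 µM together with tazemetostat on day 0 in medium with 2% serum. Cells of the DMSO group went through the same schedule with DMSO. The 6 other libraries, 3 with ipatasertib alone and 3 with tazemetostat alone, followed that schedule too. They serve here as reference levels and for comparisons with the single drugs. All 12 libraries also enter the filter on counts, the scaling and the estimate of spread behind each test of the combination against DMSO. Every group was collected after 24 h, and poly(A) RNA was sequenced. All groups come from 1 line. Whether the libraries A, B and C of a group are independent cultures is not said in the labels, and a p-value here therefore measures only how far these libraries spread, which may be technical.

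AKT is the kinase through which PI3K signals growth and survival. When it is active, it holds FOXO transcription factors in the cytoplasm, and when ipatasertib blocks it, FOXO factors can enter the nucleus and switch on genes such as receptor and adaptor genes of insulin signalling. EZH2 is the enzyme of the Polycomb complex PRC2, which marks histone H3 with a repressive methyl group and keeps developmental and tissue-specific genes silent. Tazemetostat blocks that enzyme, and the mark is then lost over days as cells divide.

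Of 23228 genes in the tables, 14571 had enough counts to be tested. Against DMSO, 5018 genes (34.4%) were higher and 4371 (30.0%) lower with both drugs, at an adjusted p under 0.05 in edgeR's quasi-likelihood test. A log2 change below is that fit's log2 fold change over DMSO, with its standard error (SE). By at least 2-fold, 1860 genes (12.8%) were higher and 426 (2.92%) lower. Of the 1860 genes, 1002 (53.9%) stood under 1 CPM (counts scaled to a common library total after TMM adjustment, not by transcript length) with DMSO. The filter on low counts can keep such a gene through the other groups alone, so this share is only a description. The median log2 fold change of all tested genes was 0.03. Groups of genes are described by lists, with the members called at the same threshold, and members named below as exceptions to their list, because they went against it or did not pass, were picked after their values were seen. List counts against DMSO stand beside the 34.4% higher and 30.0% lower of all tested genes, and counts near those shares describe no trait of a list.

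**Figure D1:**
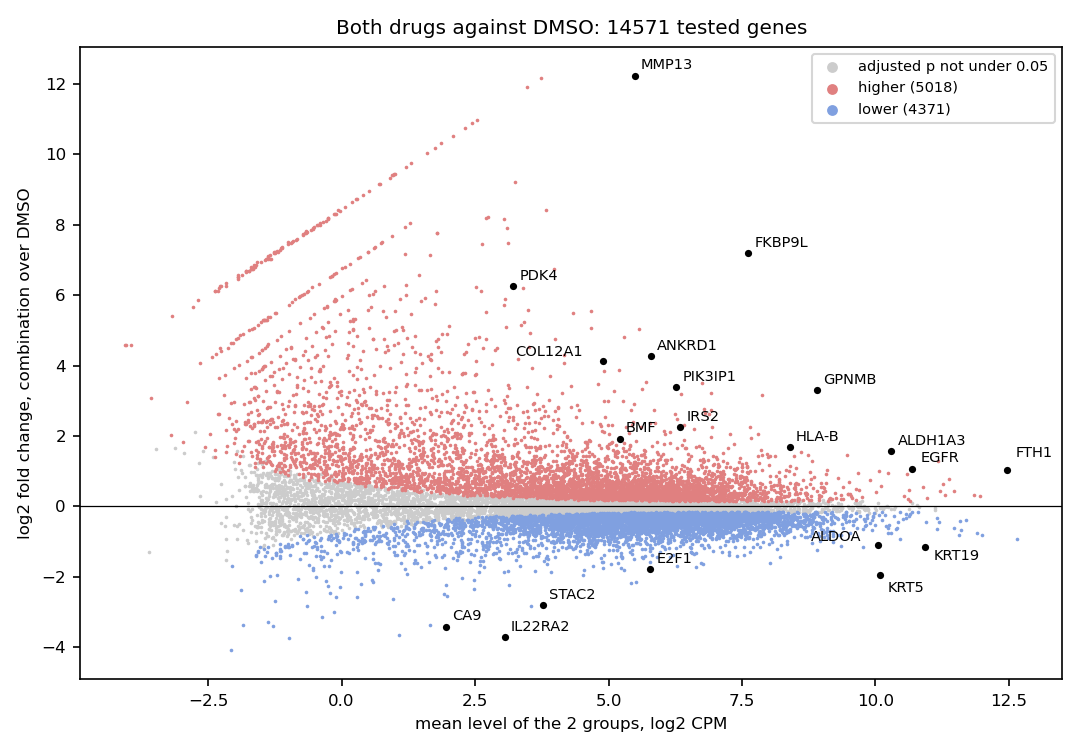
Log2 fold change of the combination over DMSO (vertical) against the mean level of both groups in log2 CPM (horizontal) for each of the 14571 tested genes, red for the 5018 higher, blue for the 4371 lower and grey for the rest. Many large rises lie at low levels, where the slanted lines are genes with few or no DMSO reads whose fitted fold depends on a prior count. The labelled rises FKBP9L (7.18) and GPNMB lie at higher levels. Labelled falls lie among well expressed genes, such as KRT5 (-1.96) and ALDOA (-1.10), and at low levels, such as IL22RA2 and CA9 (-3.41).

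Counts in genes ranged from 22682755 to 28746965 per DMSO library and from 12981622 to 17948209 per combination library, so 3 counts equal 0.106 to 0.136 CPM in the former and 0.166 to 0.228 CPM in the latter. Reads that the counting placed outside genes made up 19.9% ± 1.43 with DMSO and 25.2% ± 0.952 with both drugs (SD, n = 3), a gap of 5.35 percentage points with an exact two-sided permutation p of 0.1, the smallest that 3 against 3 libraries allow. This share moved with the treatment, and its part in the results below was not tested. The line's epithelial genes KRT5, KRT8, KRT18, EPCAM and CDH1 were expressed in both groups, and the progesterone receptor gene PGR had no read in either. Over genes, chi-square divided by its degrees of freedom was 2.41 to 3.61 between libraries B and C and 4.36 to 15.5 between A and either of them, within each group. In bulk RNA, fewer cells of a type and less RNA per cell cannot be told apart.

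Transcripts of EZH2 and AKT1, targets of the 2 drugs, were lower with the combination. EZH2 stood at 128, 113 and 112 CPM in DMSO libraries A, B and C and at 68.5, 77.7 and 79.2 CPM in the combination libraries (log2 change -0.65, SE 0.075, edgeR adjusted p = 1.34e-07). EED, a PRC2 core subunit that reads the methyl mark, fell as well (53.2, 51.9 and 52.5 against 36.7, 36.8 and 35.6 CPM, log2 change -0.53). SUZ12, the remaining core subunit, stood at a log2 fold change of -0.24 (edgeR adjusted p = 0.0174), a call that was lost without DMSO library A (adjusted p = 0.0896). For EZH2 and EED the 2 groups did not overlap. EZH1, the homologous methyltransferase, went the other way, from 9.83 ± 0.705 to 16.96 ± 1.23 CPM (SD, n = 3). EZH2 stood at 84.4 CPM with ipatasertib alone and 113 CPM with tazemetostat alone. Of 13 tested PRC2 genes in all, 3 were higher (EZH1, JARID2 and LCOR) and 8 lower, with a median log2 fold change of -0.24.

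AKT1, a kinase that ipatasertib blocks, fell from 179.96, 187 and 186 CPM to 130.2, 123 and 109.7 CPM (log2 change -0.61, SE 0.072, edgeR adjusted p = 1.82e-07). Its groups did not overlap. AKT2 had a log2 fold change of -0.22 (edgeR adjusted p = 0.0143), which did not pass without combination library B (adjusted p = 0.0506) or C (0.059). AKT1 with both drugs was also below its level with ipatasertib (147 CPM, edgeR adjusted p = 0.00284) and with tazemetostat (177 CPM, edgeR adjusted p = 1.91e-06).

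Genes that FOXO factors activate rose almost as a block. Of 25 tested members, 21 were higher and 4 lower, against 34.4% and 30.0% of all tested genes, and the median log2 fold change was 0.95. PIK3IP1, which restrains PI3K, stood at 13.7, 11.8 and 14.5 CPM with DMSO and at 153, 133 and 136 CPM with both drugs (log2 change 3.39, SE 0.092, edgeR adjusted p = 3.91e-18). IRS2, which couples insulin-type receptors to PI3K, went from 26.6, 28.8 and 29.6 CPM to 131, 147 and 124 CPM (log2 change 2.24, SE 0.077, edgeR adjusted p = 2.21e-16). PDK4, a kinase that shuts off pyruvate entry into the citric acid cycle, went from 0.284, 0.182 and 0.222 CPM, near the level of 3 counts, to 16.8, 19.5 and 18.7 CPM (log2 change 6.26, SE 0.18, edgeR adjusted p = 9.06e-18). In all 3 genes each combination library lay above each DMSO library, without overlap. TNFSF10, the death ligand TRAIL, rose from 86.2 ± 5.18 to 359.9 ± 27.6 CPM. Genes of FOXO factors were higher: FOXO1 by a log2 fold change of 1.77, FOXO4 by 1.57 and FOXO3 by 0.59 (these 3 were named after their values were seen). FOXO4 is itself a list member, so its rise is already in the count above. The 4 lower members were TRIB1 (-0.35), SOD2 (-0.34), GADD45A (-0.27) and CAT (-0.16), of which SOD2 and CAT detoxify superoxide and peroxide. CDKN1B, the cell cycle inhibitor p27 and a classic FOXO target, rose by 0.40 on the log2 scale.

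The FOXO core letters TGTTTAC were searched on both strands of the RefSeq promoter windows (250 bases before to 50 after each gene start, build GRCh38.p14, while the counts were made on hg19). The letters were present in 2 of the 18 higher members that had a window (11.1%). They were in 3.41% of all 27305 windows and in 2.30% of those of all tested genes. The share was 3.19% for all higher genes and 1.44% for all lower genes. Both windows are shown because their genes, YPEL3 and FOXO4, are FOXO-list members that rose, with the match in capitals as it reads on the gene's strand. The match is a description of letters, not of a site or a cause. The YPEL3 window is at chr16:30096164-30096463 on the minus strand, with the match starting at position 1 after the gene start. For FOXO4 it is at chrX:71095601-71095900 on the plus strand, with the match starting at position 24.
YPEL3: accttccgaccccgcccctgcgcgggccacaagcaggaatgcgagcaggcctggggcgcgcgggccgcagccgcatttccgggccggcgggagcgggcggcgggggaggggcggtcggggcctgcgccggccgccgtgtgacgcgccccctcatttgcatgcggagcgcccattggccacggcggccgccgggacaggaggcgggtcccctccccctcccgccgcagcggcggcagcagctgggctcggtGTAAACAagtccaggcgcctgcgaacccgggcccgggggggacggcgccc
FOXO4: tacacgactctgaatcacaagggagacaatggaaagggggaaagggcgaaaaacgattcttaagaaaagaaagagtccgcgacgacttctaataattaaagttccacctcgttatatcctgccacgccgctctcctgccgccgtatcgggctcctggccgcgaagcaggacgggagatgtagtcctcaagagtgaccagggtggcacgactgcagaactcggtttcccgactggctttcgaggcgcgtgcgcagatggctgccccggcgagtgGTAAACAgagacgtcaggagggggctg
YPEL3, a small protein linked to growth arrest, stood at 13.1, 14.4 and 14.4 CPM with DMSO and 74.2, 65.8 and 59.4 CPM with both drugs (log2 change 2.25, SE 0.10, edgeR adjusted p = 1.93e-14). FOXO4 stood at 19.8, 20.4 and 20.7 CPM and 72.1, 55.3 and 53.2 CPM. Neither gene's groups overlapped. For YPEL3 the combination did not pass against ipatasertib alone (57.1 CPM, edgeR adjusted p = 0.0536), whereas for FOXO4 it did (48.1 CPM, edgeR adjusted p = 0.0136).

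Further along the pathway, INPP4B, a phosphatase that removes a product of PI3K, rose from 9.19, 8.68 and 8.89 CPM to 49.1, 49.1 and 57.3 CPM (log2 change 2.54, SE 0.099, edgeR adjusted p = 1.85e-15), without overlap. In the insulin and PI3K list of 24 tested genes, 15 were higher and 6 lower. The catalytic subunits PIK3CA (0.71), PIK3CB (0.64) and PIK3CD (1.21) were among the higher and the regulatory subunits PIK3R1 (-0.59), PIK3R2 (-0.28) and PIK3R3 (-0.59) among the lower (log2 fold changes; all but PIK3CD were named after their values were seen).

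Receptor tyrosine kinase genes were 15 higher and 4 lower of 26 tested. EGFR, a growth factor receptor for which this line is known, rose from 1101, 1089.96 and 1004 CPM to 2259.6, 2043 and 2426 CPM (log2 change 1.07, SE 0.087, edgeR adjusted p = 4.72e-10). IGF1R, the receptor of insulin-like growth factor, went from 36.8, 37.5 and 37.4 CPM to 116, 118 and 119 CPM (log2 change 1.66, SE 0.071, edgeR adjusted p = 6.87e-15). Libraries of either receptor did not overlap between the groups. EGFR with both drugs did not differ by the test from ipatasertib alone (2257 CPM, edgeR adjusted p = 0.944), and the log2 difference was -0.009 ± 0.086 SE. AXL and PDGFRA, receptors more typical of mesenchymal cells, started low: AXL rose from 0.528 ± 0.285 to 5.08 ± 0.687 CPM and PDGFRA from 3.996 ± 0.492 to 22.7 ± 1.66 CPM (SD, n = 3). The lower members were FGFR4, TYRO3, EPHB3 and EPHB2, with log2 fold changes of -0.83 to -0.30.

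Target genes of the MAPK pathway were 13 higher and 2 lower of 19, with a median log2 fold change of 0.80. The ETS factors ETV1 (2.53) and ETV5 (1.58) and the feedback inhibitor SPRY1 (1.42) led. ETV5 stood at 9.29, 8.36 and 8.37 CPM with DMSO and 24.9, 26.8 and 26.3 CPM with both drugs, without overlap, and was lower than with ipatasertib alone (34.04 CPM, edgeR adjusted p = 0.00169). The lower members were DUSP4 (-0.62), a phosphatase that dampens ERK, and MYEOV (-0.70).

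**Figure D2:**
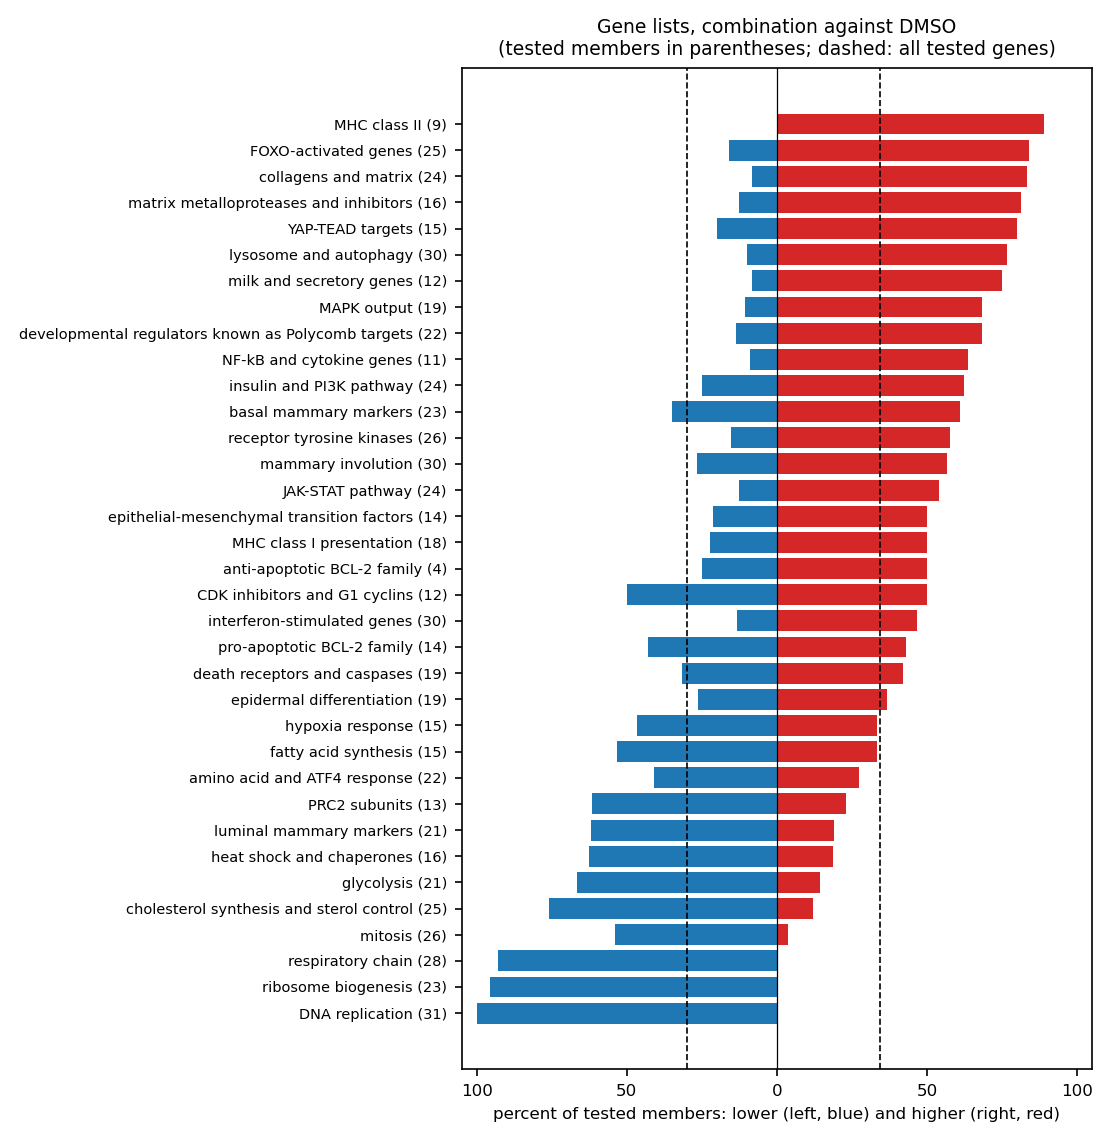
Percent of the tested members of each gene list that were lower (left, blue) or higher (right, red) with the combination than with DMSO, with the number of tested members in parentheses and dashed lines at the 30.0% and 34.4% of all tested genes. DNA replication, ribosome biogenesis and the respiratory chain have no higher member, and MHC class II has no lower one, though its genes are weakly expressed.

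All 31 tested DNA replication genes fell, with a median log2 fold change of -0.77. E2F1, a transcription factor that drives entry into S phase, stood at 82.9, 86.1 and 86.5 CPM with DMSO and 27.98, 24.1 and 21.5 CPM with both drugs (log2 change -1.79, SE 0.095, edgeR adjusted p = 4.18e-13). RRM2, of the enzyme that makes deoxynucleotides, fell from 402, 387 and 393 CPM to 113, 133 and 139.7 CPM (log2 change -1.62, SE 0.074, edgeR adjusted p = 2.73e-14). CDC6, which loads the replicative helicase, fell from 82.9, 84.5 and 80.9 CPM to 27.4, 25.9 and 29.3 CPM (log2 change -1.59, SE 0.071, edgeR adjusted p = 1.73e-14). In these 3 genes no combination library reached a DMSO library. Against the single drugs, 29 of the 31 were lower than with ipatasertib, against 20.7% of all tested genes, and 28 were lower than with tazemetostat, against 23.1% of all tested genes.

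Mitosis genes moved less. Of 26 tested members 14 fell and 1, NUF2 (0.26), rose, with a median log2 fold change of -0.21. CDK1, the kinase that starts mitosis, stood at 238, 243 and 257 CPM with DMSO and 137, 174 and 163 CPM with both drugs (log2 change -0.64, edgeR adjusted p = 8.4e-07), without overlap. MKI67, a marker of cycling cells, had a log2 fold change of -0.21 that did not pass (edgeR adjusted p = 0.11; it was named after its value was seen). Against ipatasertib alone, 8 of the 26 were higher and 1 lower with the combination, against 24.2% and 20.7% of all tested genes. The inhibitors CDKN1C, CDKN2B, CDKN1B and CDKN1A of the cyclin-dependent kinases rose by log2 fold changes of 0.40 to 1.16, while CDKN2D, CDKN2A and CDKN2C were lower, with log2 fold changes of -0.19 to -0.70. Of the whole list of such inhibitors and G1 cyclins, 6 of 12 were higher and 6 lower.

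Genes that build ribosomes fell with 22 of 23 tested members lower and none higher. NPM1 (0.047, edgeR adjusted p = 0.589) was the member that did not pass. MYC, the transcription factor that drives this programme and is counted in the list, stood at 72.4, 68.5 and 66.97 CPM with DMSO and 32.1, 28.6 and 29.8 CPM with both drugs (log2 change -1.20, SE 0.074, edgeR adjusted p = 4.49e-12). RRS1, needed for the large ribosomal subunit, fell from 70.7, 74.3 and 74.7 CPM to 30.9, 26.999 and 21.3 CPM (log2 change -1.46, SE 0.10, edgeR adjusted p = 3.9e-11). Each combination library lay below each DMSO library in both genes. MYC with both drugs was lower than with ipatasertib, where it stood at 101 CPM (edgeR adjusted p = 1.58e-14), and lower than with tazemetostat, where it stood at 39.7 CPM (edgeR adjusted p = 0.00019).

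Genes of energy metabolism were mostly lower. In glycolysis 14 of 21 tested members were lower and 3 higher, with a median log2 fold change of -0.54, and in the respiratory chain 26 of 28 were lower and none higher, with a median of -0.52. ALDOA, the aldolase of glycolysis, stood at 1403, 1479.6 and 1422 CPM with DMSO and 727, 628 and 650.5 CPM with both drugs (log2 change -1.10, SE 0.067, edgeR adjusted p = 4.56e-12). CYC1, a cytochrome of respiratory complex III, fell from 89.1, 88.3 and 86.6 CPM to 52.97, 43.7 and 49.3 CPM (log2 change -0.85, SE 0.085, edgeR adjusted p = 1.26e-08). Neither gene's groups overlapped. The 3 higher glycolysis members were PFKFB3 (1.21), which makes the activator of phosphofructokinase, PFKM (0.61) and the glucose transporter SLC2A3 (2.09). SLC2A3 had a mean under 2 CPM in both groups. ACTB (-0.91), GAPDH (-0.80) and TUBB (-0.76), often used as references, had the largest falls in CPM among called genes, a measure that also depends on transcript length, and kept that direction under every scaling tried.

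Of 15 tested hypoxia-induced genes, 5 were higher (33.3%) and 7 lower (46.7%), against 34.4% and 30.0% of all tested genes. CA9, a carbonic anhydrase, fell from 7.24, 7.54 and 6.45 CPM to 0.665, 0.379 and 0.906 CPM (log2 change -3.41, SE 0.22, edgeR adjusted p = 1.17e-11). ADM, the vasodilator adrenomedullin, rose from 5.89, 5.996 and 5.37 CPM to 29.1, 26.5 and 27.6 CPM (log2 change 2.27, SE 0.11, edgeR adjusted p = 5.42e-14). In both genes the groups stood apart, in opposite directions.

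Chaperone genes were mostly lower, 10 of 16 tested against 3 higher, with a median log2 fold change of -0.23. HSPD1, the chaperonin of mitochondria, fell from 999.6, 961 and 958 CPM to 574, 662 and 679 CPM (log2 change -0.61, SE 0.075, edgeR adjusted p = 3.39e-07). HSPA8, the constitutive HSP70, rose from 1405, 1306 and 1278 CPM to 1645, 1765 and 2076 CPM (log2 change 0.46, SE 0.077, edgeR adjusted p = 1.94e-05). Neither of these overlapped between the groups. Amino acid and ATF4 response genes gave 9 lower and 6 higher of 22. PSPH and PSAT1, which make serine, were lower (-0.76 and -0.71), as was PYCR1 of proline synthesis (-0.88), while DDIT3, the stress factor CHOP, rose from 5.85 ± 0.999 to 11.1 ± 1.11 CPM (SD, n = 3).

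Sterol synthesis genes were 19 lower and 3 higher of 25, with a median log2 fold change of -0.29. HMGCS1, which commits acetyl groups to the pathway, fell from 959, 896 and 921 CPM to 531, 567 and 543 CPM (log2 change -0.76, SE 0.061, edgeR adjusted p = 3.76e-10), and MVD, a decarboxylase of the same pathway, was lower too (-0.83). SC5DL, a desaturase near the end of the pathway, rose from 342, 372 and 356 CPM to 673, 796 and 728 CPM (log2 change 1.04, SE 0.084, edgeR adjusted p = 5.05e-10), although it stood at 269 CPM with ipatasertib and 419 CPM with tazemetostat. Neither HMGCS1 nor SC5DL overlapped between the groups. STARD4 (0.47), which moves cholesterol between membranes, was higher too. Against tazemetostat alone 19 of the 25 were lower, against 23.1% of all tested genes. Against ipatasertib alone 9 were higher and none lower, against 24.2% and 20.7% of all tested genes. The sterol element TCACNCCAC was searched in promoter windows as the FOXO letters were. It was in 0 of the 14 lower members that had a window, and in 1 of 18 tested members, SREBF2. Its share was 1.10% for all tested genes and 0.988% for all lower genes. Fatty acid synthesis gave 8 lower and 5 higher of 15. FASN, the fatty acid synthase, fell from 832 ± 7.48 to 476 ± 55.98 CPM (SD, n = 3).

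Lysosome and autophagy genes rose, 23 of 30 tested members against 3 lower, with a median log2 fold change of 0.57. GPNMB, a glycoprotein of lysosomes and melanosomes, stood at 87.2, 90.4 and 88.4 CPM with DMSO and 847, 885 and 884 CPM with both drugs (log2 change 3.30, SE 0.066, edgeR adjusted p = 2.94e-20). CTSF, a lysosomal protease, rose from 27.9, 26.3 and 25.97 CPM to 122, 108 and 117 CPM (log2 change 2.12, SE 0.075, edgeR adjusted p = 2.8e-16). GABARAPL1, which coats autophagosomes, rose from 32.2, 32.9 and 31.1 CPM to 97.7, 86.5 and 83.6 CPM (log2 change 1.48, SE 0.08, edgeR adjusted p = 5.76e-13). All combination libraries exceeded all DMSO libraries in these 3 genes. The lower members were GLA (-0.38), CTSZ (-0.18) and TFE3 (-0.37), a transcription factor of lysosomal genes. CTSL1 rose by 2.37, but close copies make its counts uncertain, as they do for FKBP9L, HSPE1 and the HLA, S100A, PSG and keratin families. Genes that overlap, or lie antisense to each other, are also uncertain: how strand was treated in counting was not given in the sources used here.

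**Figure D3:**
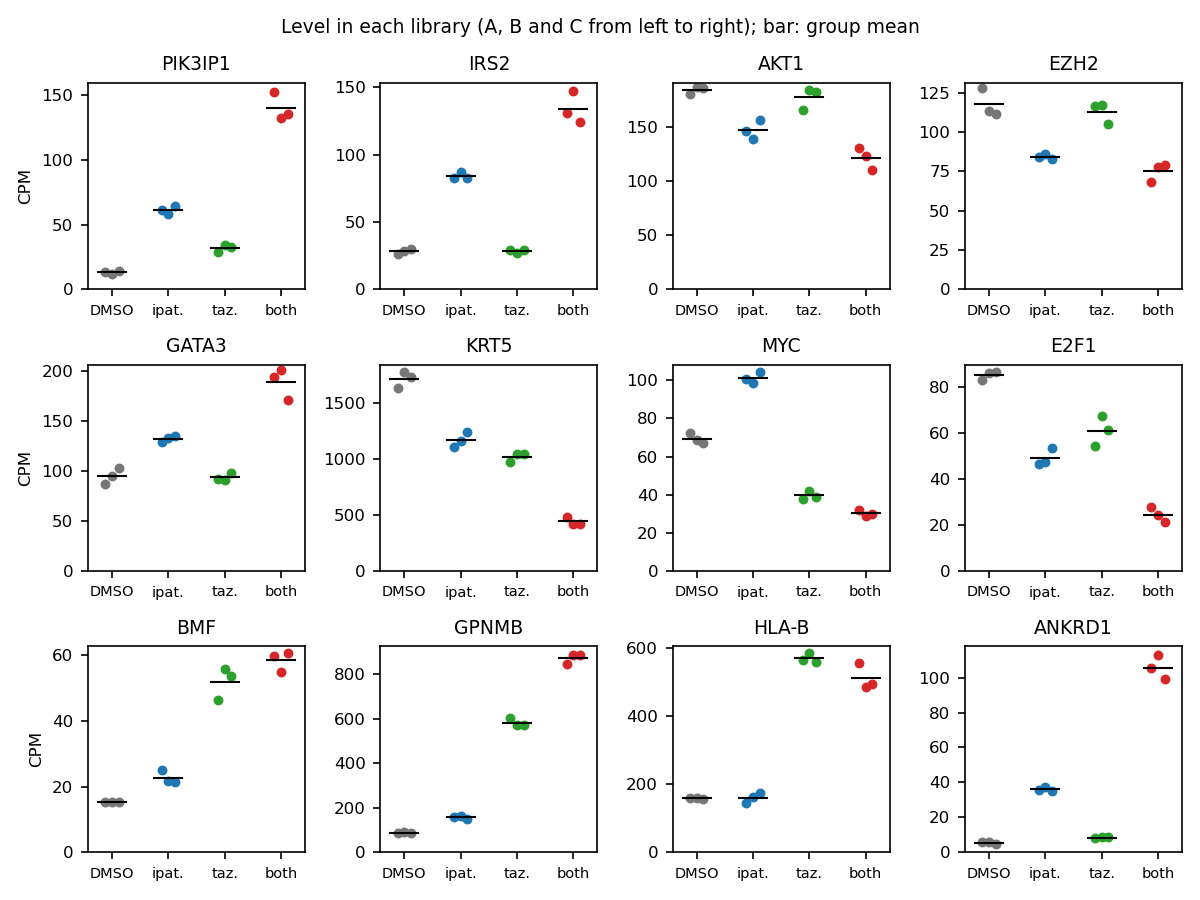
Level in CPM (vertical, from 0) of 12 genes in libraries A, B and C of the 4 groups (horizontal), with the group mean as a bar. KRT5 steps down and GATA3 steps up to their most extreme levels with both drugs, MYC is above DMSO with ipatasertib and below it in the other treatments, and HLA-B is close between tazemetostat and the combination.

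Mammary lineage genes did not move as a unit. Luminal markers were 13 lower and 4 higher of 21, and basal markers 14 higher and 8 lower of 23. GATA3, the transcription factor of luminal identity, rose against the trend of its list, from 86.6, 95.2 and 103 CPM to 195, 201 and 171 CPM (log2 change 0.99, SE 0.074, edgeR adjusted p = 1.24e-10). KRT19, a luminal keratin, fell from 2598, 2782 and 2739 CPM to 1316, 1165 and 1157 CPM (log2 change -1.16, SE 0.066, edgeR adjusted p = 1.49e-12), and SPDEF, an ETS factor of secretory cells, was lower too (-1.19). None of these overlapped. ELF5, the factor of milk-producing alveoli, stood at 2.63, 1.95 and 2.41 CPM with DMSO and 0.831, 1.29 and 1.74 CPM with both drugs, and its call (log2 change -0.90, edgeR adjusted p = 0.00544) was lost without combination library A (adjusted p = 0.0607). ELF3 (0.50), EHF (0.36) and AGR2 (0.73) were the other higher luminal genes.

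The basal list held members that moved in both directions. KRT5, the basal keratin that marks the line, fell from 1636, 1779.7 and 1739 CPM to 484, 421 and 423 CPM (log2 change -1.96, SE 0.07, edgeR adjusted p = 4.4e-16), and KRT14 (-1.38), KRT6B (-1.02), KRT16 (-0.92), KRT6A (-0.55) and KRT17 (-0.49) were lower as well. The laminin chain LAMB3 rose from 32.6, 30.8 and 30.7 CPM to 117, 101 and 112 CPM (log2 change 1.81, SE 0.077, edgeR adjusted p = 8.73e-15), with LAMA3 (1.81) and the integrin ITGB4 (1.42). For KRT5 and LAMB3 the groups did not overlap (KRT14, KRT6B, KRT16, KRT6A, KRT17 and ITGB4 were named after their values were seen). The simple keratins KRT8 (-0.36) and KRT18 (-0.017, edgeR adjusted p = 0.854) moved less, and the second did not pass. In edgeR, KRT18 passed when library A of every group was left out (log2 fold change -0.14, adjusted p = 0.0111).

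Of 19 listed milk and secretory genes 12 were tested, 9 higher and 1 lower, with a median log2 fold change of 1.10. The filter on low counts can keep a member only through the group where it is high, so these counts are not over all members. Of the 9 higher genes, 5 stayed under 5 CPM. PIP (0.263 ± 0.0495 to 2.15 ± 0.185 CPM), PIGR (0.333 ± 0.108 to 2.40 ± 0.335 CPM) and WFDC2 (0.720 ± 0.0900 to 4.15 ± 0.218 CPM) were among those (SD, n = 3), while SCGB2A2, a secretoglobin of breast epithelium, rose from 10.9 ± 1.40 to 37.6 ± 2.82 CPM. The 1 lower member was SLPI (-0.43), a protease inhibitor.

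Involution, the regression of the mammary gland after weaning, runs through JAK-STAT signalling, lysosomal proteases and cell death genes. Of 30 tested genes of that programme, 17 were higher and 8 lower with both drugs, with a median log2 fold change of 0.60. Within the JAK-STAT list of 24, 13 were higher and 3 lower. IL6R, the receptor of interleukin 6, rose from 1.67, 1.41 and 2.04 CPM to 7.42, 6.98 and 6.20 CPM (log2 change 2.00, SE 0.17, edgeR adjusted p = 7.03e-10). JAK1, a kinase of the same pathway, rose from 189, 188 and 179 CPM to 319, 336 and 349 CPM (log2 change 0.85). SOCS3, the feedback inhibitor, rose from 7.73, 6.86 and 7.96 CPM to 25.4, 19.3 and 17 CPM (log2 change 1.46). The groups did not overlap in any of the 3. The transcript of STAT3, the factor they act on, stood at 284, 294 and 296 CPM with DMSO and 294, 272 and 286 CPM with both drugs, overlapping, with a log2 fold change of -0.036 ± 0.063 SE (edgeR adjusted p = 0.631). The 3 lower JAK-STAT genes were IL20RB (-2.45, with a mean under 2 CPM in both groups) and the inhibitors SOCS1 (-0.56) and CISH (-0.50).

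Of 14 tested pro-apoptotic genes of the BCL-2 family, 6 were higher and 6 lower. BMF, a BH3-only protein that binds the survival proteins of the family, rose from 15.4, 15.5 and 15.3 CPM to 59.9, 54.9 and 60.5 CPM (log2 change 1.93, SE 0.089, edgeR adjusted p = 3.35e-14), without overlap. Other BH3-only genes, HRK (1.65), BBC3 (1.05), BCL2L11 (0.55, the gene of BIM) and PMAIP1 (0.44), rose as well, whereas BAD (-0.72) and BID (-0.49) of the same class and the pore formers BAK1 (-0.65), BAX (-0.25) and BOK (-0.45) fell (PMAIP1, BID, BAK1, BAX and BOK were named after their values were seen). BMF with both drugs was above ipatasertib alone (22.8 CPM, edgeR adjusted p = 2.04e-11) and did not pass against tazemetostat alone (51.97 CPM, log2 difference 0.17 ± 0.082 SE, edgeR adjusted p = 0.0978). Of the survival genes, 2 of 4 rose, MCL1 (0.32) and BCL2L1 (0.22), and 1, BCL2L2 (-0.24), fell. The call of BCL2L1 was lost without combination library A (log2 change 0.12, edgeR adjusted p = 0.164) and without DMSO library B or C (adjusted p = 0.0635 and 0.061). Among death receptors and caspases, 8 of 19 were higher (42.1%) and 6 lower (31.6%), not far from the 34.4% and 30.0% of all tested genes. FAS reached 2.24 ± 0.301 CPM from 0.475 ± 0.232 CPM, and CASP4, an inflammatory caspase, 82.3 ± 1.84 CPM from 37.6 ± 1.22 CPM (SD, n = 3).

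Genes for antigen presentation rose in part. MHC class I presentation gave 9 higher and 4 lower of 18. HLA-B stood at 159.8, 159.5 and 157 CPM with DMSO and 557, 486 and 495 CPM with both drugs (log2 change 1.69, SE 0.071, edgeR adjusted p = 7.5e-15), without overlap. The chaperones CALR (-0.60) and PDIA3 (-0.57) and the peptide loading genes TAP2 (-0.45) and TAPBP (-0.24) were the 4 lower. HLA-B did not pass against tazemetostat alone (569 CPM, edgeR adjusted p = 0.0792). Of 14 MHC class II genes 9 were tested and 8 were higher, but the group means of all 8 were under 8 CPM, and only 2 were still called under a filter of 50 counts in 3 libraries. HLA-DPA1, for example, stood at 0.142, 0.0908 and 0 CPM and 1.83, 2.43 and 2.02 CPM, with 6 reads in all DMSO libraries.

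Interferon-stimulated genes were 14 higher and 4 lower of 30. IFIT2, a sensor-linked antiviral protein, rose from 3.48, 3.23 and 3.26 CPM to 19.8, 24.3 and 23.8 CPM (log2 change 2.76, SE 0.11, edgeR adjusted p = 5.12e-15), and IFIT3 by 2.36, while BST2 (-1.07), OAS2 (-1.01), ISG15 (-0.54) and USP18 (-0.39) fell. IFIT2 did not overlap between the groups. Of 21 listed NF-kB and cytokine genes 11 were tested, and of these 7 were higher and 1, the inhibitor NFKBIA (-0.56), lower. The filter on low counts can keep a member only through the group where it is high, so these counts are not over all members. The adhesion gene ICAM1 rose from 19.9 ± 0.784 to 64.6 ± 3.81 CPM (SD, n = 3), and CCL2, a chemokine that recruits monocytes, reached 3.16, 2.50 and 2.996 CPM from 4 reads in the DMSO group.

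Matrix genes showed some of the largest rises. Of 24 tested collagens and matrix genes 20 were higher and 2 lower, and of 16 tested metalloproteases and inhibitors 13 were higher and 2 lower, both with a median log2 fold change of 1.56. Setting members without a DMSO read to their lower bound left both medians unchanged. Bounds that lie above a median cannot move it, so this is no check of the medians. COL12A1, a fibril-associated collagen, stood at 3.09, 3.13 and 3.33 CPM with DMSO and 55.4, 54.8 and 58.5 CPM with both drugs (log2 change 4.14, SE 0.10, edgeR adjusted p = 4.63e-19). MMP13, collagenase 3, stood at 0, 0.0454 and 0 CPM, a single read, and at 87.5, 92.1 and 90.3 CPM, 6926 times as much (95% interval from counting alone, 1242 to 273640). Both genes were far apart between the groups. MMP12 and MMP3, with no DMSO read, were at least 102-fold and 95.4-fold higher. Filters on low counts keep such genes only through the group where they are high, so these counts are not over all members: 6 of 30 matrix genes and 5 of 21 metalloprotease genes were not tested. LAMA4 (-0.60) and COL1A1 (-0.35) were the lower matrix genes, and the call of COL1A1 was lost without DMSO library B (edgeR adjusted p = 0.0515). MMP15 (-0.56) and the urokinase receptor PLAUR (-0.96) were the lower ones of the second list.

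Of 15 tested targets of the YAP and TEAD factors, which respond to cell shape and stretch, 12 were higher and 3 lower. ANKRD1 rose from 5.78, 6.13 and 4.63 CPM to 105, 113 and 99.0 CPM (log2 change 4.26, SE 0.097, edgeR adjusted p = 2.74e-19). NT5E, the surface nucleotidase CD73, rose from 17.1, 17.6 and 18.04 CPM to 188, 201 and 206 CPM (log2 change 3.50, SE 0.088, edgeR adjusted p = 1.28e-18). CTGF, a secreted matrix regulator, rose from 23.8, 23.5 and 23.7 CPM to 123, 139 and 135 CPM (log2 change 2.48, SE 0.075, edgeR adjusted p = 1.8e-17). Each of the 3 was without overlap, and each also exceeded its level with either single drug: for ANKRD1 36.1 CPM with ipatasertib and 8.50 CPM with tazemetostat (edgeR adjusted p = 6.34e-13 and 1.94e-17). The lower members were TEAD4 (-0.81), F3 (-0.26) and WWTR1 (-0.25).

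Of the genes without any read in the DMSO libraries, 55 reached at least 1 CPM with both drugs, 47 with tazemetostat and 0 with ipatasertib, and no gene at 1 CPM or more in another group was without a read with both drugs. SHISA2, which acts on Wnt and FGF receptors, reached 26.6, 25.9 and 27.6 CPM, at least 688-fold higher than 3 counts over the DMSO group. RGS7, a regulator of G proteins, reached 9.47, 11.9 and 11.4 CPM, at least 278-fold higher, and TWIST1, a transcription factor of mesenchymal cells, 4.99, 6.22 and 3.62 CPM, at least 126-fold higher. These levels were above those with tazemetostat alone, which were 9.61, 1.83 and 1.90 CPM (edgeR adjusted p = 9.71e-09, 3.94e-09 and 4.14e-05). GJA1, the gap junction protein connexin 43, went the other way, with 14.9 CPM in tazemetostat and 8.45 CPM in the combination (edgeR adjusted p = 2.28e-05). WBP5 was at 21.9 and 22.2 CPM, a difference that did not pass (log2 difference 0.02 ± 0.092 SE, edgeR adjusted p = 0.878). All such bounds and intervals reflect counting error alone, as the reads carry no molecular identifiers and may be copies of one molecule.

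**Figure D4:**
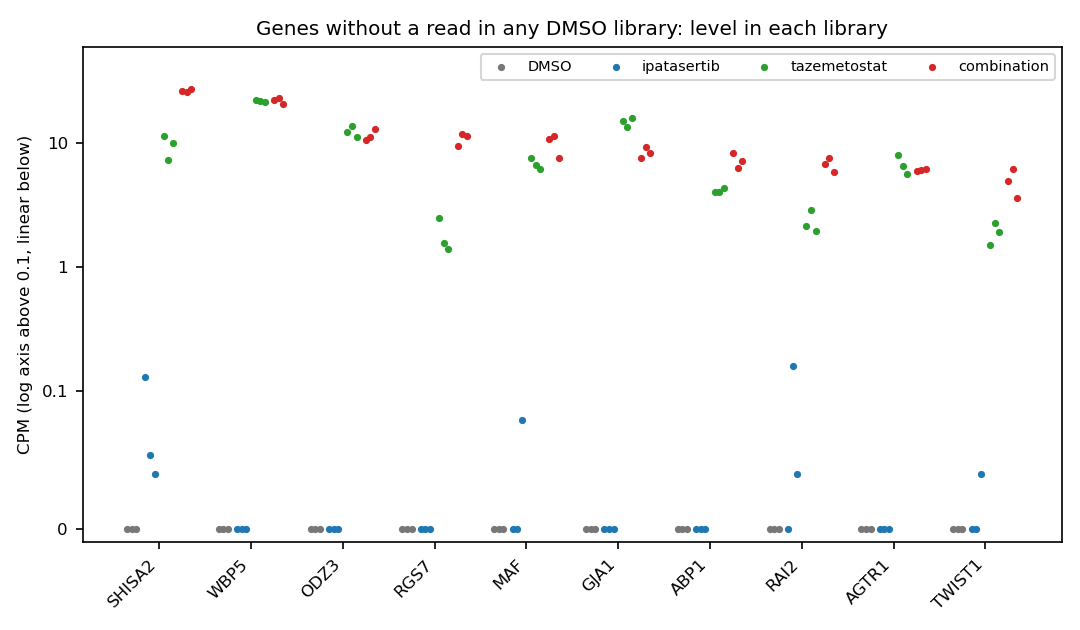
Level in CPM (vertical, logarithmic above 0.1 and linear below) of the 10 genes without a DMSO read that have the highest means with the combination, each library as a point and each group in its colour. The ipatasertib points lie at or near 0, and the tazemetostat points lie above 1 CPM, below the combination for RGS7 and above it for GJA1.

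Other large fold rises started from low DMSO levels. HSPB8, a small heat shock protein, stood at 0.106, 0.0454 and 0.111 CPM with DMSO and 17.5, 16.8 and 17.4 CPM with both drugs. NOS3, the endothelial nitric oxide synthase, went from 0.0355, 0.0908 and 0 CPM to 15.2, 10.6 and 13.2 CPM, and it stood at 0.516 CPM with ipatasertib and 1.33 CPM with tazemetostat. CNTNAP2, a neuronal adhesion protein, went from 0.0709, 0 and 0.148 CPM to 27.9, 26.9 and 30.4 CPM. In these 3 genes the DMSO libraries held a few reads at most and every combination library lay far above them. SATB1, which folds chromatin, had 2 reads in all DMSO libraries and stood 733 times as high (95% interval 202 to 6064) with both drugs. FKBP9L, a close copy of FKBP9, went from 2.41, 2.91 and 2.74 CPM to 437, 354 and 375 CPM (log2 change 7.18, edgeR adjusted p = 1.9e-21).

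Regulators of development that Polycomb is known to bind also moved. Of 40 listed, 22 were tested, 15 of these were higher and 3 lower, and 18 did not pass the filter on counts. TBX3 rose from 0.284, 0.182 and 0.333 CPM to 13.4, 13.7 and 11.4 CPM (log2 change 5.53, SE 0.20, edgeR adjusted p = 2.87e-16), without overlap, and EN2 reached 4.53 ± 0.497 CPM. The lower ones were HOXC8 (-0.98), LHX2 (-0.36) and SIX2 (-0.34). The 19 tested genes of epidermal differentiation included 7 higher (36.8%) and 5 lower (26.3%), close to the 34.4% and 30.0% of all tested genes. Filaggrin, FLG, rose from 0.426, 0.999 and 0.556 CPM to 12.7, 16.0 and 13.3 CPM (log2 change 4.44). S100A8, a calcium-binding protein of inflamed skin, fell from 32.3, 40.1 and 36.9 CPM to 11.1, 8.49 and 8.57 CPM (log2 change -1.94). Neither gene overlapped. Factors of epithelial-mesenchymal transition were 7 higher and 3 lower of 14, with vimentin, VIM, going from 20.3 ± 1.46 to 62.7 ± 5.12 CPM (SD, n = 3), while CDH1, the epithelial cadherin, had a log2 change of -0.19 (named after its value was seen).

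Among genes with at least 5 CPM in 1 of the groups and no overlap, IL22RA2 and CA9 had the largest falls by fold. IL22RA2, a decoy receptor of interleukin 22, fell from 15.2, 14.9 and 16.1 CPM to 0.776, 1.52 and 1.32 CPM (log2 change -3.72, SE 0.17, edgeR adjusted p = 4.41e-14). STC1, the hormone stanniocalcin, fell from 73.6, 74.9 and 76.7 CPM to 18.6, 16.5 and 15.3 CPM (log2 change -2.16, SE 0.088, edgeR adjusted p = 4.98e-15). The chloride channel regulator CLCA2 (-2.83), the salt transporter SLC12A3 (-3.38), the elastase inhibitor PI3 (-2.18) and GGT1 (-2.23), which cleaves glutathione, fell too. By difference in CPM the largest rises were in FTH1, the heavy chain of ferritin (3709 ± 93.98 to 7632 ± 409.8 CPM), MGP, matrix Gla protein (1345 ± 52.5 to 3255 ± 112 CPM), APP, the amyloid precursor protein (1957 ± 94.01 to 3362 ± 59.6 CPM), and ALDH1A3, which makes retinoic acid (636 ± 8.55 to 1886 ± 78.2 CPM; SD, n = 3).

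Against the single drugs, 3528 genes (24.2%) were higher and 3012 (20.7%) lower with both drugs than with ipatasertib, and 3374 (23.2%) were higher and 3373 (23.1%) lower than with tazemetostat. Of the 1860 genes at least 2-fold above DMSO, 1531 (82.3%) were also above ipatasertib, 1038 (55.8%) above tazemetostat and 834 (44.8%) above both. In the other direction 105 of them were below tazemetostat and 9 below ipatasertib. Of the 426 genes at least 2-fold below DMSO, 272 (63.8%) were below ipatasertib, 345 (81.0%) below tazemetostat and 238 (55.9%) below both. Among all tested genes 10.5% were above both single drugs and 10.5% below both. These shares are of genes picked by the combination's own level, which all the comparisons share, so they are given as a description.

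Among the largest rises against tazemetostat alone, TFPI2, an inhibitor of proteases in the matrix, stood at 4.40, 5.68 and 4.11 CPM with DMSO, 6.09 CPM on average with tazemetostat and 65.8, 70.8 and 67.9 CPM with both drugs (against tazemetostat, log2 difference 3.50, edgeR adjusted p = 4.36e-16). CLEC2B, a ligand of an NK cell receptor, stood at 0.461, 0.999 and 0.259 CPM with DMSO and 19.5, 21.8 and 20.8 CPM with both drugs. Every combination library of both genes lay above every DMSO library. OSBP2, an oxysterol-binding protein, was among the largest falls against ipatasertib (133 CPM alone and 37.1 CPM with both drugs), and S100A8 among the largest falls against tazemetostat (68.4 CPM alone and 9.38 CPM with both drugs). RGS2, an inhibitor of G protein signals, rose to 98.8 CPM with tazemetostat from 47.2 ± 2.08 CPM with DMSO, and stood at 30.4 CPM with ipatasertib and 30.6 ± 4.53 CPM with both drugs.

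**Figure D5:**
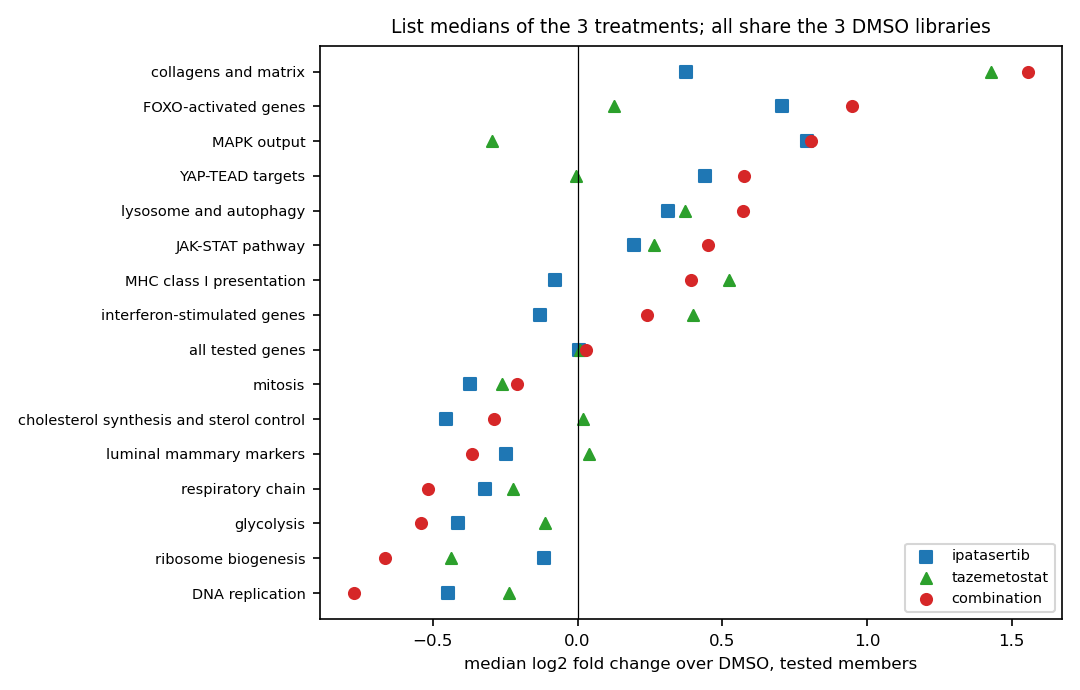
Median log2 fold change over DMSO (horizontal) of the tested members of 15 lists and of all tested genes (vertical), for ipatasertib (squares), tazemetostat (triangles) and the combination (circles), which all share the same DMSO libraries. MAPK output has close medians with ipatasertib and with both drugs, matrix and MHC class I lie nearer to tazemetostat than to ipatasertib, and DNA replication and ribosome biogenesis lie below both single drugs.

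A departure of the combined effect from the sum of the single log2 effects, the interaction, was positive in 869 genes (5.96%) and negative in 875 (6.01%). These counts moved strongly with single libraries: leaving out 1 of the 12 libraries gave 357 (without DMSO library C) to 2017 (without tazemetostat library A) genes with a positive interaction and 262 (without combination library B) to 1726 (without combination library A) genes with a negative interaction. GATA3 was at 94.8 ± 8.02 CPM with DMSO, 132 CPM with ipatasertib, 93.8 CPM with tazemetostat and 189 ± 15.7 CPM with both drugs, an interaction of 0.53 ± 0.10 SE (edgeR adjusted p = 0.00378). KRT5 was at 1171 CPM with ipatasertib and 1022 CPM with tazemetostat, and its interaction was -0.65 ± 0.096 SE (edgeR adjusted p = 0.000512). IRS2 was at 28.4 CPM with tazemetostat, against 28.3 ± 1.58 CPM with DMSO, and its interaction was 0.67 ± 0.11 SE (edgeR adjusted p = 0.000771). GATA3 and IRS2 exceeded the sum of the single effects, and KRT5 fell below it. BMF had a negative interaction too (-0.40, edgeR adjusted p = 0.0371), as a rise smaller than the sum of its single rises. Its call was lost in 7 of the 12 fits that left out 1 library (adjusted p = 0.0651 to 0.123).

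Markers of other cell types were looked at as a whole. Sums in this paragraph are over all listed markers, tested or not. Those of the 12 leukocyte markers ran from 83.9 to 89.2 CPM with DMSO and from 81.7 to 92.9 CPM with both drugs. CD14, at 79.2 ± 3.10 CPM with DMSO, made up the most. The 4 tested ones of 12 included 3 higher and 1 lower. Sums of the 10 fibroblast markers ran from 14.8 to 16.5 and from 34.2 to 37.1 CPM with DMSO and with both drugs. Of the 4 tested, 3 were higher and 1 lower. Sums of the 10 endothelial markers ran from 34.7 to 36.2 and from 31.2 to 36.2 CPM, and of the 5 tested 2 were higher and 1 lower. Sums of the 8 adipocyte markers ran from 61.7 to 65.7 and from 72.2 to 86.4 CPM, and of the 5 tested 2 were higher. Single markers rose: PDGFRA, as given above, CSF1R, a receptor of macrophages, from 3.28 ± 0.452 to 19.1 ± 1.37 CPM, and CDH5, the endothelial cadherin, from 0.150 ± 0.0857 to 3.82 ± 0.722 CPM (SD, n = 3). LUM of the fibroblast list and LPL of the adipocyte list, without a DMSO read, reached 1.84 and 2.10 CPM with both drugs. CD3E, NKG7, PECAM1, COL1A2, DCN and ADIPOQ, picked from these lists, were at or near 0 in both groups, with group means of at most 0.351 CPM. Other members of the same lists, such as CD14 and CSF1R, were not. The part of these markers in the results was not tested.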

How the data were processed

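RNA of 12 MDA-MB-468 libraries (RNeasy Plus extraction, Kapa Hyper Prep libraries, poly(A) selection, per the labels' protocols) had been sequenced and counted by the authors. The deposited values are whole-number counts per gene and library. The submitters' processing notes name STAR, SAMtools, HTSeq, DESeq2 and hg19 without versions, while annotation and strand setting were not given in the sources used here. Rows without a gene name (outside genes, ambiguous, not unique) were left out, which kept 66.3% ± 1.66 of DMSO and 61.9% ± 1.38 of combination reads (SD, n = 3). A table of normalised values was not used.

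Genes were filtered with filterByExpr (minimum count 10), scaled by TMM and fitted in edgeR 4.0.16 (R 4.3.3, limma 3.58.1) with the robust quasi-likelihood F-test over all 12 libraries and 4 groups (8 residual degrees of freedom). Benjamini-Hochberg adjusted p-values under 0.05, over 14571 genes, were calls. Printed CPM are counts over the TMM-adjusted library totals. The procedure was tested on simulated data in which far fewer genes changed than were called here. Such data cannot show how the scaling or the error rate behaves with changes this wide. Counts over all genes, list counts and named genes against DMSO were recomputed with no filter or with at least 50 counts in 3 libraries, with RLE or no scaling factors, in DESeq2 1.42.0, with the 2 groups alone, a replicate block, each DMSO or combination library left out, no A library and adjusted p under 0.01. The 2-fold counts were also tested with glmTreat. The interaction was recomputed with each of the 12 libraries left out and not with 2 groups alone. List counts against the single drugs were not recomputed.

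The comparison and its gene lists were chosen with earlier results of these data known. Named genes were the 15 largest called rises and falls by log2 fold change with 5 CPM and no overlap, the 10 largest each way by CPM, the 10 highest without a DMSO read, up to 4 called members of each list with at least 2 CPM, the 6 largest each way against single drugs and for the interaction, and a panel of 22 genes. Depth was 12981622 to 28746965 counts in genes per library in the 6 libraries compared. Some members of the lists are not reported here by name.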

Additional observations from a re-analysis of the deposited data

Results flagged for a closer look

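For 18 of 34 named genes that were tested, the effect of ipatasertib differed with and without tazemetostat, by edgeR's interaction term at an adjusted p under 0.05. Of the 18, 12 were named because they had the largest called interactions, and the other 6 are of the 22 panel genes. Of all tested genes, 5.96% had a positive and 6.01% a negative interaction. The values below are the log2 change with both drugs less the sum of the single changes, and over all genes the number called moves strongly when 1 library is left out. More than the sum were FKBP9L (2.048), BCAT1 (2.023, a transaminase of branched amino acids), SEMA6A (2.005, a guidance cue), NEXN (1.871, which binds actin), CLEC2B (1.626) and C2CD4A (1.586). CLEC2B lost its call without DMSO library B (1.04, adjusted p = 0.153).

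Below the sum were MGAT5 (-1.278, an enzyme that branches glycans), ALDH3A1 (-1.151, an aldehyde dehydrogenase), HIST1H4C (-1.076), MUC5B (-1.062, a mucin), RGS2 (-1.06) and CEACAM6 (-1.038, an adhesion protein). HIST1H4C lost its call in 5 of the fits that left out 1 library (adjusted p = 0.0517 to 0.075).

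Among the genes of the panel, IRS2 (0.6707), GATA3 (0.5289) and CDKN1B (0.3404) were above the sum, and MYC (-0.9442), KRT5 (-0.6545) and BMF (-0.3983) below it. BMF lost its call in 8 of the alternatives and CDKN1B in 9, and IRS2, GATA3, MYC and KRT5 in none.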

How the results depend on the processing

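No named gene called in the reported or an alternative fit, against DMSO or in the interaction, turned direction. Other genes and the single-drug comparisons were not examined for this. The counts over all genes against DMSO stayed within 1.5 times of those reported, except that 1093 genes were at least 2-fold higher under a filter of 50 counts in 3 libraries, which leaves fewer low genes, and 170 were at least 2-fold lower when edgeR's glmTreat tested against that fold. Library totals in place of TMM gave 59.7% of calls as higher, against 53.4%, with the median of all genes at 0.092. The interaction counts moved under more alternatives. Genes with a positive interaction numbered 533 with a replicate block, 2605 with no A library and 218 at an adjusted p under 0.01, and leaving out 1 library gave 357 to 2017. Genes with a negative interaction numbered 479, 2847 and 179 under these, 1369 with library totals, and 262 to 1726 with 1 library left out. A shift of over 1.5 times came from leaving out DMSO B or C, ipatasertib A or C, any of the tazemetostat libraries, or combination A or B. The cause was not tested. Between the combination and DMSO, libraries with the same letter did not deviate together (correlations of -0.21, -0.048 and -0.24 over 10921 genes), and the letters were not taken as pairs there. With the replicate block, 4847 genes were higher and 4178 lower than with DMSO, and 9014 of its 9025 calls were also among the 9389 reported.

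At an adjusted p under 0.05, calls of named genes against DMSO were lost for AKT2, SUZ12 and BCL2L2 with library totals (edgeR adjusted p = 0.0757, 0.0734 and 0.0515) and for ELF5, MALAT1, BCL2L1, CD68 and ESAM with no A library (adjusted p = 0.0998, 0.17, 0.0752, 0.103 and 0.269). CD68 was also lost with no filter and in DESeq2. SUZ12, AKT2, ELF5, COL1A1, BCL2L1, CD68, ESAM and OVOL1 lost theirs without at least 1 single library. Of the 80 list counts, 0 to 7 moved by over 1.5 times under an alternative, and those that moved were of few genes: 8 higher MHC class II genes became 2 under the filter of 50 counts, 3 higher fibroblast markers became 1, and 1 higher mitosis gene became 0 to 3. Depth limits what can be said of genes under about 0.2 CPM, where 3 counts lie.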

Other observations

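Other receptor tyrosine kinase genes rose with both drugs; those named in this paragraph were picked after their values were seen, except NDRG1, PDK1, ELOVL6, ACLY, THRSP and SCD. MET, the receptor of hepatocyte growth factor, stood at 114, 117 and 114 CPM with DMSO and 317, 352 and 371 CPM with both drugs (edgeR adjusted p = 4.14e-14). FGFR2, a fibroblast growth factor receptor, went from 13.9, 15.6 and 15 CPM to 50.9, 49.9 and 56.8 CPM (edgeR adjusted p = 8.79e-14). INSR, the insulin receptor, went from 50.9, 57.6 and 52.6 CPM to 119, 118 and 116 CPM (edgeR adjusted p = 1.4e-12). In these 3 genes the groups did not overlap. Lipid genes did not follow one direction: THRSP, a regulator of lipogenesis, had a log2 change of -2.62, ACLY, which makes acetyl-CoA in the cytosol, -0.85, and SCD, which desaturates fatty acids, -0.60, while ELOVL6, which lengthens them, had 0.79. Of the hypoxia genes, NDRG1 rose (1.15) and PDK1, the sister kinase of PDK4, fell (-1.14).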
